A study of Rattus norvegicus with 24 samples.

Results

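Vasopressin and oxytocin are short peptides cut from the precursors encoded by Avp and Oxt, and the genes described here are these precursors, another hypothalamic precursor, developmental regulators and receptors of the system. They were the 7 rows named Avp, Oxt, Trh, Otp, Sim1, Avpr1a and Oxtr among the 23950 genes listed for each library of rat nucleus accumbens (NAc), and all 7 were found in all 24 libraries.

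Avp and Oxt are made mainly by neurons of the paraventricular (PVN) and supraoptic (SON) nuclei of the hypothalamus, which send the peptides to the posterior pituitary and to other brain regions. Otp and Sim1 encode transcription factors that these neurons need in order to form, and Trh encodes the precursor of thyrotropin-releasing hormone, which PVN neurons and other brain cells make. Avpr1a and Oxtr encode the G protein-coupled receptors through which the peptides act in the forebrain, and oxytocin signaling in the NAc is known for its part in social reward.

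The NAc, a ventral striatal region of the reward pathway, was taken from Sprague Dawley pups on postnatal day 14 (P14), 4 pups in each of 6 groups, with the pups of a group from separate litters. In the F1 generation, in utero oxycodone (IUO) pups were born to F0 dams gavaged with oxycodone, at first 10 and later 15 mg/kg/day, from before mating until weaning. Postnatal oxycodone (PNO) pups were nursed by F0 dams given 15 mg/kg/day only after the birth, and dams of saline (SAL) pups received saline. F2 pups were the offspring of F1 females of each condition, themselves not dosed, and of males from outside the experiment. All groups shared the strain, the age and the region, and the sex of each pup was not given. Dissection in a brain matrix takes a block of tissue, and in such bulk RNA fewer cells of a type and less RNA per cell cannot be told apart.

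Values are FPKM, in which fragments are scaled to transcript length and to the library total, so levels may be compared between genes. The number of reads was unknown, so the counting error and the smallest detectable level were unknown too, and a value of 0 is called listed at 0. Differences are between group means of log2(FPKM + 0.1), tested with limma, where a gene entered if 4 of the 8 libraries or more reached 0.1 FPKM. A gene is said to pass the rule where its limma p was below 0.05 before adjustment and its mean FPKM values differed 2-fold or more. The methods of the study name a lower fold, 1.5, with edgeR, for genes taken to RT-PCR, and calls that differ at 1.5-fold are given beside the 2-fold ones.

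Striatal projection neuron genes, such as Drd1, Drd2 and Ppp1r1b, were present in every library, and the 8 genes of that list summed to between 400.1 and 1303 FPKM. Genes of neighbouring tissue varied far more between libraries. The 6 thalamus genes summed to between 26.9 and 332.0 FPKM, the 8 choroid plexus genes to between 5.58 and 12257 FPKM, and the 10 genes of hypothalamus outside the PVN and SON to between 3.58 and 826.1 FPKM. The last of these maxima was F2 PNO replicate 4, which also held 10 anterior pituitary genes, a list added after the values were seen, at 5939 FPKM in sum, against at most 13.6 FPKM in the other 23 libraries. Pomc, a gene of both pituitary and hypothalamus, made up 818.0 of the 826.1 FPKM there. The next highest sum of the hypothalamus list was 70.5 FPKM, in F1 IUO replicate 2. F2 IUO replicate 4 and F2 PNO replicate 1 lay farthest from the median library, with a median absolute difference of 0.446 on the log2 scale over 17087 genes, against 0.159 to 0.322 in the others. Y-linked genes summed to 27.2 to 36.1 FPKM in F1 SAL and to 0.03 to 2.57 FPKM in F2 SAL, and to a mix of high and low values within each of the other 4 groups.

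The upstream sequences of Avp and Oxt are shown because these neighbouring genes moved together from library to library, while the files hold no measurement at either promoter. In the RefSeq annotation of build GRCr8 they lie on chromosome 3 on opposite strands and face each other, with no gene listed between them. The sequences are the 250 bases before each annotated start, 5′ to 3′ on the strand of the gene. Avp is at chr3:138248523-138248772 on the minus strand and Oxt at chr3:138235504-138235753 on the plus strand. Capitals mark the matches among the motifs searched on both strands.
Avp: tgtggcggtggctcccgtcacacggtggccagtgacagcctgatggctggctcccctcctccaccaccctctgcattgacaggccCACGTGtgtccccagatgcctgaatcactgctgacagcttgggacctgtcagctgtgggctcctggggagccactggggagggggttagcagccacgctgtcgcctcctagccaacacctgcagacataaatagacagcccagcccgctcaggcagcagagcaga
Oxt: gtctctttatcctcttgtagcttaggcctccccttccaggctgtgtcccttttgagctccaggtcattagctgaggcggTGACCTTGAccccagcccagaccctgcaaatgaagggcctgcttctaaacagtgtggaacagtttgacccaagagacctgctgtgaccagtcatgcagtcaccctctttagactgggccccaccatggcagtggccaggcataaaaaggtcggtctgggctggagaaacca
In Avp the capitals are CACGTG, the E-box bound by basic helix-loop-helix factors, from -165 to -160 relative to the start. It was in 5.59% of 33469 rat promoter windows of this length. In Oxt they are TGACCTTGA, the reverse complement of TCAAGGTCA, an extended element for orphan nuclear receptors, from -171 to -163, which was in 0.388% of the windows. The TATA motif TATAAA, the E-box variant TACGTG, the homeodomain core TAATTA and the cyclic AMP element TGACGTCA were not among the letters of either window. Of the other 5 genes, Avpr1a had TATAAA, a motif in 12.9% of windows, and the others had none of the 6 motifs.

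Avp and Oxt were measured at similar levels, and both ranged further between pups than nearly all other genes. Avp (ENSRNOG00000021229) had a median of 7.62 FPKM over the 24 libraries and ranged from 1.09 to 199.2. Oxt (ENSRNOG00000021225) had a median of 7.21 FPKM and ranged from 0.34 to 135.0. The 5 highest libraries held 72.0% of all Avp and 65.8% of all Oxt. Within groups, the residual SD on the log2 scale was 1.85 for Avp and 1.99 for Oxt, above that of 99.1% and 99.4% of 17087 genes, whose median was 0.363. A level that differed up to 103-fold among 4 pups given the same treatment (Oxt in F2 SAL) sets the scale against which the group differences are read.

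**Figure D1:**
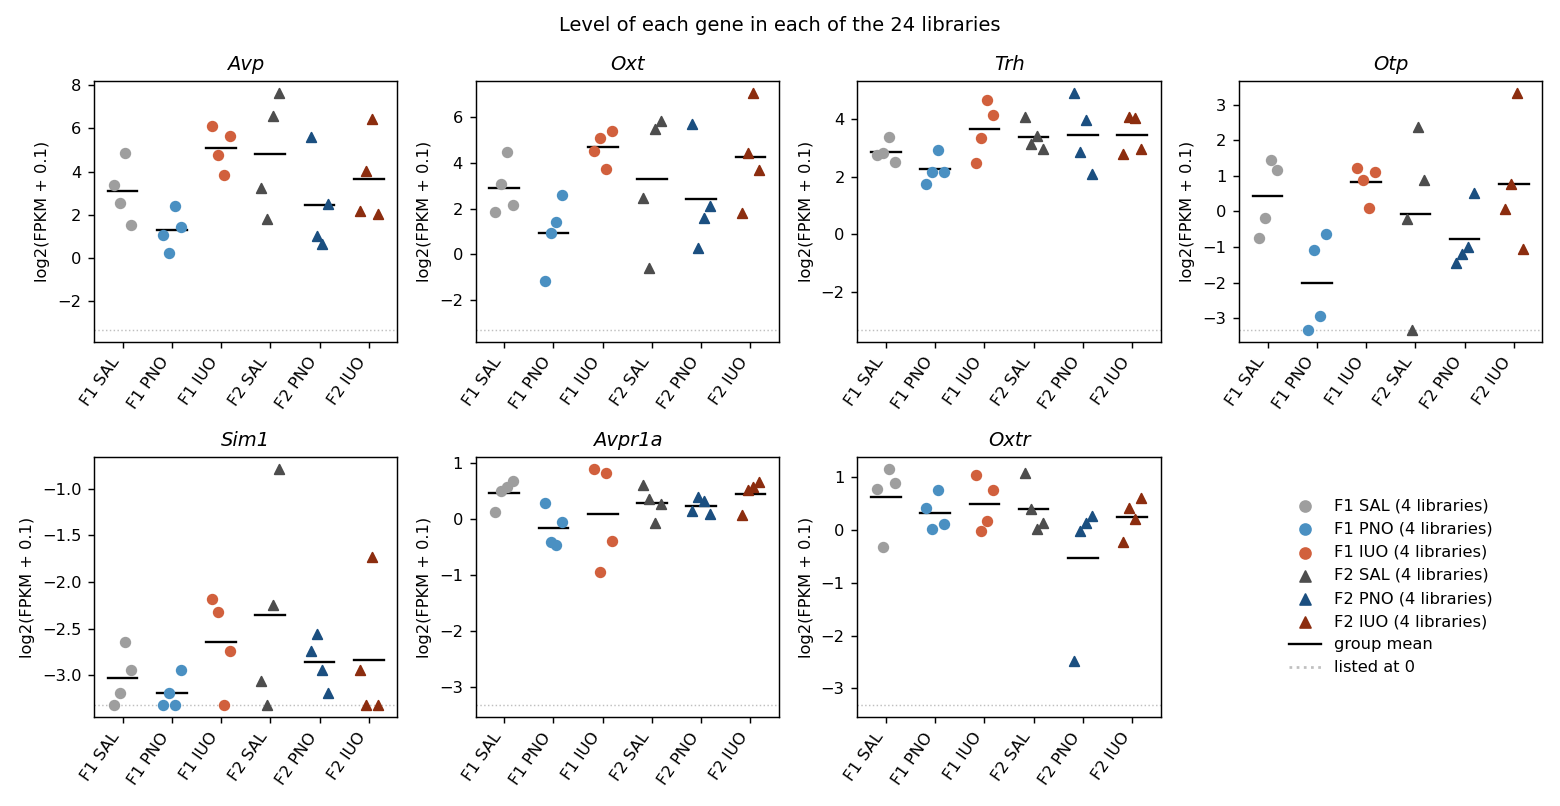
Each point is 1 of 24 libraries, drawn as log2(FPKM + 0.1) on the vertical axis by group on the horizontal axis, with 4 libraries a group, circles for F1 and triangles for F2. Bars are group means, and the dotted line is a value listed at 0. Avp, Oxt and Otp of F1 PNO lie below all F1 IUO libraries, while the F2 groups overlap.

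For Avp, the F1 IUO libraries were at 68.3, 27.2, 14.2 and 49.4 FPKM in order of replicate number. The F1 SAL libraries were at 10.4, 5.80, 29.0 and 2.80 FPKM. The F1 PNO libraries were at 1.98, 1.09, 5.18 and 2.56 FPKM. All F1 IUO libraries were above all F1 PNO libraries, and the F1 SAL values overlapped both groups. Mean Avp of F1 IUO was 14.7 times that of F1 PNO, a log2 difference of 3.80 (SE 0.541), with an exact permutation p of 0.0286, the smallest that 4 against 4 libraries allow. Its limma adjusted p was 0.0468, and over 18 alternatives it ran from 0.0463 to 0.257, under 0.05 in 1 of them. In that comparison 0.133% of the genes tested had an adjusted p under 0.05.

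Against F1 SAL the same gene moved either way. Avp was 3.32-fold higher in F1 IUO, a log2 difference of 2.0 (SE 0.688, limma adjusted p = 0.999). It was 4.44-fold lower in F1 PNO, a log2 difference of -1.81 (SE 0.675, limma adjusted p = 0.297). Both passed the rule, and neither passed an adjusted p of 0.05. The exact permutation p was 0.0857 for F1 IUO and 0.0571 for F1 PNO.

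Oxt followed the same order in F1. The F1 IUO libraries were at 23.0, 34.6, 13.4 and 42.9 FPKM. The F1 SAL libraries were at 3.51, 8.42, 22.4 and 4.29 FPKM. The F1 PNO libraries were at 0.34, 1.81, 2.54 and 6.0 FPKM. Again every F1 IUO library was above every F1 PNO library, and F1 SAL replicate 3 was the saline library within the IUO range. Between these groups mean Oxt differed 10.7-fold, a log2 difference of 3.77 (SE 0.703, limma adjusted p = 0.0852), with an exact permutation p of 0.0286. Relative to F1 SAL, F1 IUO was 2.95-fold higher, a log2 difference of 1.81 (SE 0.562, limma adjusted p = 0.999, exact permutation p = 0.0571). Relative to F1 SAL, F1 PNO was 3.61-fold lower, a log2 difference of -1.95 (SE 0.801, limma adjusted p = 0.324, exact permutation p = 0.114).

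Trh (ENSRNOG00000011824) was at a like median level, 7.78 FPKM, but in a narrower range of 3.26 to 30.3 FPKM. The F1 IUO libraries were at 5.55, 10.0, 25.7 and 17.9 FPKM. The F1 SAL libraries were at 6.61, 7.02, 10.4 and 5.63 FPKM. The F1 PNO libraries were at 3.26, 4.42, 7.51 and 4.43 FPKM. F1 IUO replicate 1 lay within the PNO values, and the other 3 F1 IUO libraries were above them. Trh passed the rule between F1 IUO and F1 PNO, where it was 3.01-fold higher in IUO, a log2 difference of 1.42 (SE 0.441, limma adjusted p = 0.179, exact permutation p = 0.0571). Without F1 IUO replicate 1, Trh also passed between F1 IUO and F1 SAL (1.19, limma adjusted p = 0.786). With all libraries it did not pass against F1 SAL, with log2 differences of 0.80 in F1 IUO (95% interval -0.14 to 1.74) and -0.61 in F1 PNO (-1.21 to -0.02), a 1.51-fold ratio that passed at 1.5-fold and not at 2-fold.

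Otp (ENSRNOG00000010560), a homeodomain factor of neuroendocrine hypothalamic neurons, was low, with a median of 0.86 FPKM. The F1 IUO libraries were at 2.21, 1.73, 0.96 and 2.04 FPKM. The F1 SAL libraries were at 0.50, 0.78, 2.61 and 2.16 FPKM. The F1 PNO libraries were at 0, 0.37, 0.03 and 0.54 FPKM, so PNO replicate 1 was listed at 0. All F1 IUO libraries were above all F1 PNO libraries, and 3 of the 4 F1 PNO libraries were below all F1 SAL libraries. F1 PNO differed from F1 SAL by -2.42 on the log2 scale (SE 0.714, limma adjusted p = 0.242, exact permutation p = 0.0571). F1 IUO differed from F1 PNO by 2.81 (SE 0.621, limma adjusted p = 0.110, exact permutation p = 0.0286), and Otp passed the rule in both. F1 IUO and F1 SAL differed by 0.39 (95% interval -0.73 to 1.51). With values at or near 0 in F1 PNO, these log2 differences depend on the constant of 0.1, and with a constant of 1 they were -0.95 against F1 SAL and 1.15 against F1 PNO, both still past the rule.

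Sim1 (ENSRNOG00000037600), the helix-loop-helix factor of the same lineage, was listed at 0 in 7 libraries and at 0.10 FPKM or more in 5. Its highest value was 0.48 FPKM, in F2 SAL replicate 4, which was also the library highest in Avp. The next were 0.20 in F2 IUO replicate 3 and 0.12 in F1 IUO replicate 1. Sim1 was too low to be tested in any of the 9 comparisons, so 6 of the 7 genes were tested in each.

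Both receptors were low. Avpr1a (ENSRNOG00000004400), the V1a vasopressin receptor, had a median of 1.14 FPKM and a range of 0.42 to 1.77. Oxtr (ENSRNOG00000005806), the oxytocin receptor, had a median of 1.08 FPKM and a range of 0.08 to 2.14. Their residual SD within groups was 0.444 and 0.688 on the log2 scale, above that of 59.8% and 78.5% of genes. Among genes with a mean level within a factor of 2 of theirs, it was above that of 27.1% and 60.6%. For Oxtr the SD was largest in F2 PNO (1.31), where replicate 1 was at 0.08 FPKM. The F1 SAL libraries were at 0.99, 1.31, 1.38 and 1.51 FPKM for Avpr1a. The F1 PNO libraries were at 1.12, 0.65, 0.63 and 0.87 FPKM, and the F1 IUO libraries at 1.77, 0.42, 1.66 and 0.66. Of the F1 PNO values, 3 were below all F1 SAL values, while F1 IUO split into a high and a low pair. The log2 difference of Avpr1a between F1 PNO and F1 SAL was -0.62 (SE 0.244, limma adjusted p = 0.309, exact permutation p = 0.0571), a 1.59-fold ratio that passed at 1.5-fold and not at 2-fold. For Oxtr, the F1 SAL libraries were at 1.61, 0.70, 2.14 and 1.75 FPKM. The F1 PNO libraries were at 1.23, 0.91, 1.59 and 0.98, and the F1 IUO libraries at 1.96, 0.89, 1.02 and 1.58. These groups overlapped throughout. The F1 log2 differences of Oxtr were -0.14 for IUO against SAL (95% interval -0.99 to 0.71), -0.30 for PNO against SAL (-1.06 to 0.45) and 0.16 for IUO against PNO (-0.53 to 0.85). These intervals reach differences close to 2-fold.

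In counts, 2 of the 6 genes tested, Avp and Oxt, passed the rule between F1 IUO and F1 SAL, both higher, where 1.61% of all genes tested passed. Between F1 PNO and F1 SAL 3 passed, Avp, Oxt and Otp, all lower, beside 1.86% of all genes. At 1.5-fold Trh and Avpr1a made these 5, beside 4.48% of all genes, and the counts of the other 8 comparisons were as at 2-fold. Between F1 IUO and F1 PNO 4 passed, Avp, Oxt, Trh and Otp, all higher, beside 2.95% of all genes. Avp, Oxt and Otp were also the 3 whose groups did not overlap there, which held for 10.5% of all genes tested. Between F1 PNO and F1 SAL, Avp no longer passed without F1 PNO replicate 1 (-1.73), F1 PNO replicate 2 (-1.46), F1 SAL replicate 1 (-1.71) or F1 SAL replicate 3 (-1.21), nor Oxt without F1 PNO replicate 1 (-1.24), F1 PNO replicate 2 (-1.95), F1 SAL replicate 2 (-1.89) or F1 SAL replicate 3 (-1.42). With all 24 libraries in one fit, neither gene passed against F1 SAL in either comparison. The 3 comparisons share groups, so their counts are not independent of each other. The 3 precursors had a median log2 difference of 3.77 between F1 IUO and F1 PNO, and both receptors one of 0.21, beside 0.03 over all genes tested.

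**Figure D2:**
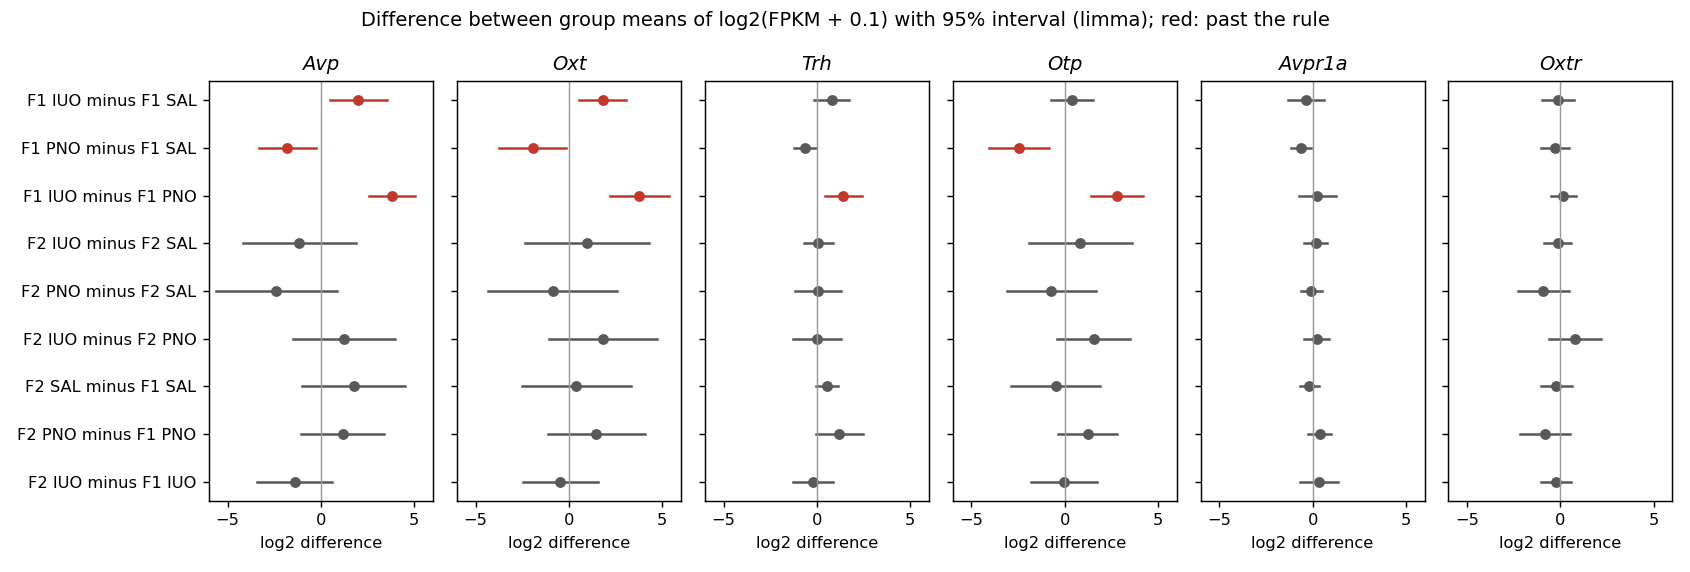
Log2 difference between group means of log2(FPKM + 0.1), the first group minus the second, on the horizontal axis with its 95% interval from limma, for 6 genes in 9 comparisons of 4 against 4 libraries. Red marks those past the rule, which are 9 gene and comparison pairs, all in F1, while the F2 intervals of Avp, Oxt and Otp are wide and cross 0.

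In F2 the values within a group lay far apart. By mean log2 level, IUO, SAL and PNO kept the order of F1 for Oxt and Otp, and for Avp SAL was the highest. For Avp, the F2 SAL libraries were at 9.44, 3.43, 95.7 and 199.2 FPKM. The F2 PNO libraries were at 47.6, 1.92, 1.48 and 5.50 FPKM, and the F2 IUO libraries at 4.44, 16.1, 85.6 and 3.97. Each group had 1 or 2 libraries far above the rest, and all groups overlapped. The F2 log2 differences of Avp were -1.16 for IUO against SAL (95% interval -4.21 to 1.88), -2.39 for PNO against SAL (-5.61 to 0.83) and 1.23 for IUO against PNO (-1.52 to 3.98).

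Oxt in F2 had its high values in the same libraries. The F2 SAL libraries were at 5.41, 0.55, 45.2 and 56.9 FPKM. The F2 PNO libraries were at 51.9, 1.09, 2.90 and 4.22 FPKM, and the F2 IUO libraries at 3.38, 21.5, 135.0 and 12.8. Replicates 3 and 4 of F2 SAL, replicate 1 of F2 PNO and replicate 3 of F2 IUO stood out for Oxt as for Avp. The log2 differences of Oxt were 0.96 for IUO against SAL (95% interval -2.36 to 4.28), -0.88 for PNO against SAL (-4.35 to 2.59) and 1.84 for IUO against PNO (-1.05 to 4.73).

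For Otp in F2, the SAL libraries were at 0.76, 0, 5.08 and 1.76 FPKM. The PNO libraries were at 0.27, 0.34, 0.40 and 1.33 FPKM, and the IUO libraries at 0.94, 1.60, 9.97 and 0.38. F2 IUO replicate 3, the library highest in Oxt, was also the highest of all 24 in Otp. For Trh in F2, the SAL libraries were at 16.8, 8.83, 10.6 and 7.74 FPKM, the PNO libraries at 30.3, 7.27, 15.6 and 4.15 and the IUO libraries at 6.77, 17.0, 16.4 and 7.82. The Trh groups overlapped, with log2 differences between 0.01 and 0.07 in the 3 F2 comparisons. Avpr1a lay between 0.86 and 1.48 FPKM in all F2 libraries. Oxtr lay between 0.75 and 2.0 FPKM in 11 F2 libraries and at 0.08 in F2 PNO replicate 1, so that the F2 PNO mean was 0.768 FPKM against 1.28 in F2 SAL, a log2 difference of -0.92 (95% interval -2.29 to 0.44) that became -0.27 without that library.

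No gene of the 7 passed the rule between F2 IUO and F2 SAL (2.18% of all genes tested), F2 PNO and F2 SAL (2.15%) or F2 IUO and F2 PNO (1.8%). In the F2 comparisons with PNO these counts turned on single libraries, while leaving out any library gave no call between F2 IUO and F2 SAL. Without F2 PNO replicate 1, which was high in Avp and Oxt and far from the median library, Avp passed between F2 PNO and F2 SAL with a log2 difference of -3.44 (limma adjusted p = 0.381). Without it, Avp (2.28) and Oxt (2.93) passed between F2 IUO and F2 PNO (limma adjusted p = 0.594 for both). Without F2 SAL replicate 2, the lowest of its group, Avp (-3.39) and Otp (-1.79) passed between F2 PNO and F2 SAL. Without F2 IUO replicate 4, Otp passed between F2 IUO and F2 PNO (2.16). Leaving out F2 PNO replicate 4, the library with pituitary genes, gave no call in either F2 comparison with PNO, and Avp then differed by -2.41 between F2 PNO and F2 SAL.

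Between the generations none of the 7 genes passed the rule either, in SAL (1.45% of all genes tested), PNO (2.01%) or IUO (3.32%). Avp was 6.42-fold higher by its mean in F2 SAL than in F1 SAL, 76.9 ± 91.8 against 12 ± 11.8 FPKM (SD, n = 4), with a log2 difference of 1.74 (95% interval -1.03 to 4.51). The sums of Y-linked genes did not overlap between these groups, so the generation and what goes with those genes cannot be told apart. Without F2 SAL replicate 2, Avp passed with a log2 difference of 2.74. Trh was 2.92-fold higher in F2 PNO than in F1 PNO, with a log2 difference of 1.21 (SE 0.552, limma adjusted p = 0.948). Trh passed the rule there without F2 PNO replicate 4 (1.67), F1 PNO replicate 3 (1.43) or F2 PNO replicate 2 (1.41), and Otp without F1 PNO replicate 4 (1.68). Without F2 IUO replicate 3, Avp (-2.34) and Oxt (-1.40) passed the rule as lower in F2 IUO than in F1 IUO.

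The change of an effect from F1 to F2 was tested directly as an interaction. For Avp, the IUO against SAL difference was 2.0 in F1 and -1.16 in F2, which differ by -3.16 (SE 1.68, limma adjusted p = 0.915). The IUO against PNO difference of Avp was 3.80 in F1 and 1.23 in F2, which differ by -2.58 (SE 1.46, limma adjusted p = 0.911). For Otp, the PNO against SAL difference was -2.42 in F1 and -0.71 in F2, which differ by 1.72 (SE 1.39, limma adjusted p = 0.9998). None of the 6 genes reached an adjusted p of 0.05 in any of the 3 interactions, where limma gave 0 such genes of all tested and 884, 674 and 1000 with an unadjusted p under 0.05.

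Ordered by the mean of log2(FPKM + 0.1), the groups ran for Avp from F1 IUO, F2 SAL, F2 IUO, F1 SAL and F2 PNO down to F1 PNO. For Oxt they ran from F1 IUO, F2 IUO, F2 SAL, F1 SAL and F2 PNO down to F1 PNO. F1 IUO was the highest group and F1 PNO the lowest also for Trh and Otp. No neighbours in the order of any of the 7 genes differed beyond their spread, with exact permutation p from 0.114 to 1. Neighbours in an order taken from the same means have the smallest gaps, so these tests cannot show whether groups farther apart differed. Of the 63 exact tests of a gene in a comparison, 3 reached 0.0286, those of Avp, Oxt and Otp between F1 IUO and F1 PNO. These are the same 3 whose groups did not overlap there, which held for 10.5% of all genes tested.

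Avp and Oxt rose and fell together across pups, and Otp followed them less closely. Over the 24 libraries, Avp and Oxt had r = 0.870 and rho = 0.884 on the log2 scale, each with a permutation p of 1e-05, the smallest that 100000 permutations give, and an adjusted p of 0.00021 over 21 pairs of genes. The r was 0.859 without the 2 libraries farthest from the median of Avp, 0.847 within F1, 0.882 within F2 and 0.868 after centring on group means. Of the 6 libraries highest in each gene, Avp and Oxt shared 5, Avp and Otp 4, and Oxt and Otp 3. F2 PNO replicate 1 ranked 3 of 24 in Oxt and 6 in Avp but 21 in Otp, and F1 SAL replicate 4 ranked 5 in Otp but 19 in Avp. Otp had r = 0.782 and rho = 0.723 with Oxt (permutation p = 2e-05 and 0.0001, adjusted 0.00021 and 0.00105), and r was 0.675 without the 2 farthest libraries, 0.849 within F1, 0.733 within F2 and 0.693 after centring. Otp had r = 0.655 and rho = 0.688 with Avp (permutation p = 0.00043 and 0.00026, adjusted 0.00226 and 0.00182), and r was 0.621 without the 2 farthest libraries, 0.646 within F1, 0.659 within F2 and 0.560 after centring. Sim1, low as it was, had r = 0.719 and rho = 0.524 with Avp (permutation p = 6e-05 and 0.00957, adjusted 0.00042 and 0.0287), with r of 0.605 without the 2 farthest, 0.689 within F1 and 0.747 within F2. In all, 7 of the 21 pairs had both adjusted p under 0.05, and these were pairs among Avp, Oxt, Otp and Sim1 and the pair of Oxt and Trh. No pair with a receptor was among them. How many pairs of other genes reach such relations was not measured. Ahdc1 (rho = 0.855) ranked closer to Otp, and Grik4 (0.702) closer to Sim1, than any of the 7 genes did. For Avp and Oxt, no gene outside the 7 ranked closer than they did to each other. Avp and Avpr1a had r = 0.03 and rho = 0.07, and Oxt and Oxtr r = -0.18 and rho = -0.05 (permutation p = 0.891, 0.75, 0.412 and 0.811, adjusted 0.955, 0.868, 0.721 and 0.868).

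**Figure D3:**
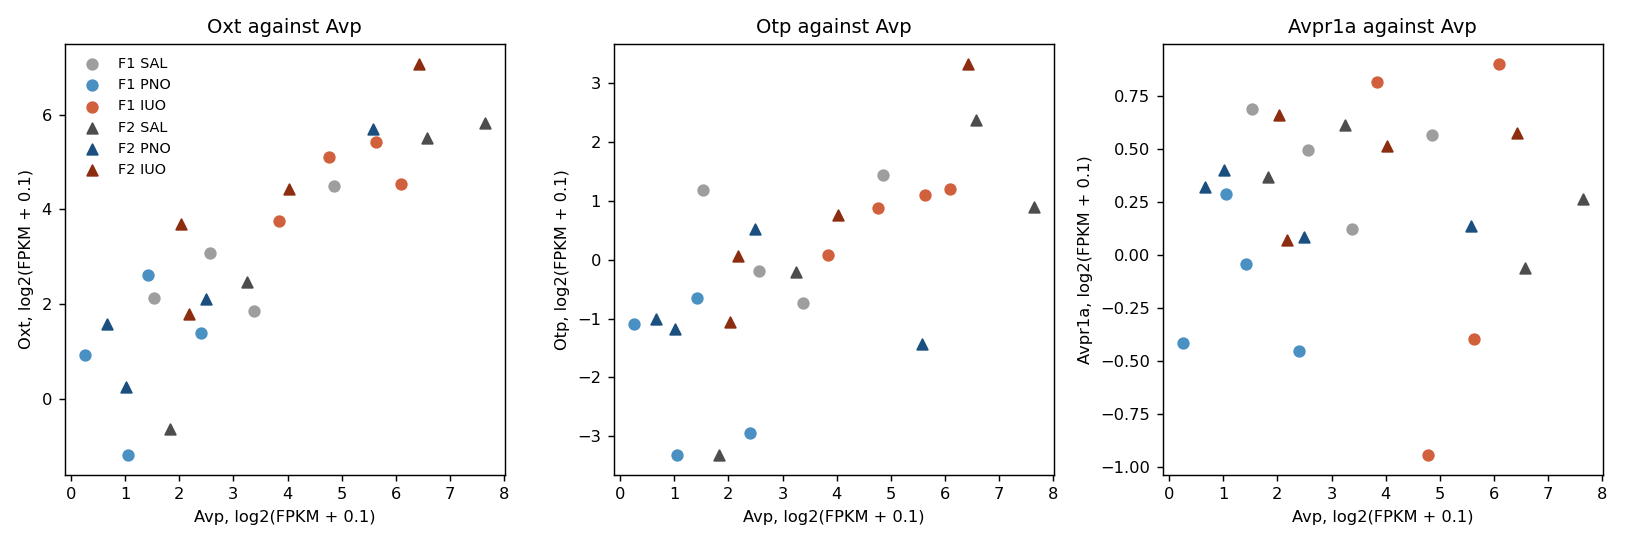
Each point is 1 of 24 libraries, with log2(FPKM + 0.1) of Avp on the horizontal axes and of Oxt, Otp and Avpr1a on the vertical axes, colored by group (circles F1, triangles F2). Oxt rises with Avp (r = 0.870), Otp less tightly (r = 0.655), and Avpr1a shows no such trend (r = 0.03).

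The ratio of Avp to Oxt was less even than their shared rise. It ran from 0.309 to 6.24 with a median of 1.22, and Avp was above Oxt in 14 of 24 libraries. In F2 SAL all 4 ratios were above 1, with a median of 2.81, and in F2 IUO 1 of 4 was, with a median of 0.692. These ratios are given as a description.

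Outside the 7 genes, those whose levels ranked most like Avp over the 24 libraries were Lhx5 (rho = 0.766), Uncx (0.762) and Mab21l2 (0.757), developmental regulators with medians of 0.35, 0.345 and 0.32 FPKM. For Oxt they were Uncx (0.754), Arl2 (0.736) and Ecel1 (0.733). For Otp they were Ahdc1 (0.855), Fnbp1 (0.836) and LOC100911949 (0.834), and for Sim1 Grik4 (0.702), Sh3glb1 (0.678) and Wbp11l1 (0.676). Trh ranked with Pllp (0.864), Cnp (0.841) and Wscd1 (0.810), of which Pllp and Cnp are known from myelin. Avpr1a ranked with Mfsd13a (0.783), AABR07039229.2 (0.749) and Kcne5 (0.729), and Oxtr with Gon4l (0.725), Zbtb2 (0.718) and Efemp2 (0.717). These are the 3 top ranks among 17087 genes, over libraries of unknown depth whose tissue composition varied, and carry no test.

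Few other genes of the system passed the rule, as among all genes tested, of which 1.45% to 3.32% passed in a comparison. None of the precursor processing genes Pcsk1, Pcsk2, Cpe, Pam and Scg5 passed the rule in any of the 9 comparisons. The same held for the transcription factors Arnt2 and Pou3f2, partners in PVN and SON development, and for Crh, Sst, Gal and Pdyn, peptides also made in the PVN. Arnt2, at 15.9 to 31.2 FPKM, and Cpe, at 457.5 to 770.5 FPKM, were expressed throughout. Among receptors, Avpr2 passed the rule in 2 comparisons, Trhr in 1 and Avpr1b, listed at 0 in 13 libraries and at most at 0.28 FPKM, in none. At most 2 of these 3 receptors were high enough to be tested in a comparison. Avpr2, the V2 receptor, was at 0, 0, 0.14 and 0 FPKM in F2 IUO, at 0.90, 0.40, 0.27 and 0.14 in F2 SAL and at 1.12, 0.17, 0.62 and 0.91 in F1 IUO. It was lower in F2 IUO than in F2 SAL (log2 difference -1.88, SE 0.566, limma adjusted p = 0.491) and than in F1 IUO (-2.49, SE 0.611, limma adjusted p = 0.221). Avpr2 met the filter in both through the higher group, and most F2 IUO values were listed at 0. These log2 differences thus depend on the constant of 0.1. Trhr, the receptor of thyrotropin-releasing hormone, was 2.10-fold higher in F2 PNO than in F1 PNO (log2 difference 0.94, SE 0.314, limma adjusted p = 0.948). Of the breakdown and release genes Lnpep, Trhde, Cd38 and Prep, Lnpep, the oxytocinase, passed in that comparison as lower in F2 PNO (-1.65, SE 0.626, limma adjusted p = 0.948), and the others passed in none.

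Genes of neighbouring tissue moved beside the F1 results. In F1 IUO against F1 SAL, 2 of the 7 hypothalamus genes tested passed the rule, Hcrt (orexin, log2 difference 3.30) and Pmch (melanin-concentrating hormone, 3.54), peptides of the lateral hypothalamus. The median log2 difference of the 7 genes was only 0.30, beside 0.01 over all genes tested. The list summed to 6.84 to 70.5 FPKM in F1 IUO, 3.58 to 11.1 in F1 SAL and 4.04 to 8.33 in F1 PNO. Hcrt and Pmch together made up most of this sum in F1 IUO replicates 2, 3 and 4. Hcrt was at 0.87, 41.2, 9.28 and 41.3 FPKM and Pmch at 0.09, 25.8, 4.59 and 22.6 FPKM in the F1 IUO libraries. F1 IUO replicate 1 was thus the highest of its group in Avp and the lowest in Hcrt and Pmch, and F2 SAL replicate 4, at 199.2 FPKM of Avp, had Hcrt at 1.31 and Pmch at 0.67. By the mean log2 level of the whole list, however, F2 SAL replicate 4 was the highest of its group (-0.79), and the 4 F2 SAL libraries ranked as they did in Avp. F2 IUO replicate 3, the highest of all 24 in Oxt and Otp, had the highest list mean (0.83), while F1 IUO replicate 1 had the lowest of its group (-1.40). With the mean log2 level of the list as a covariate, the F1 IUO against F1 SAL difference was 1.37 for Avp (limma adjusted p = 0.816) and 0.75 for Oxt (limma adjusted p = 0.839), and neither passed the rule. Between F1 IUO and F1 PNO the same covariate gave 4.13 for Avp, 2.81 for Oxt and 2.85 for Otp, which passed (limma adjusted p = 0.106, 0.217 and 0.194), and 0.56 for Trh, which did not (limma adjusted p = 0.652). Over the 24 libraries the list had r = 0.524 and rho = 0.578 with Avp and r = 0.610 and rho = 0.602 with Oxt (permutation p = 0.00812, 0.00381, 0.00166 and 0.00253, adjusted over 56 relations 0.152, 0.069, 0.0563 and 0.069). For Avp and Oxt in turn, r was 0.591 and 0.467 without the 2 farthest libraries, 0.673 and 0.740 within F1, and 0.416 and 0.522 within F2. The list holds Pomc, at 818.0 FPKM in F2 PNO replicate 4, the library with pituitary genes, and a list without Pomc was not tested. The part of neighbouring tissue in the F1 differences was not tested beyond these fits.

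In F1 PNO against F1 SAL, 5 of 6 thalamus genes passed the rule as higher, led by Tcf7l2 (log2 difference 2.02) and Slc17a6 (1.74). The list summed to 125.5 to 332.0 FPKM in F1 PNO and 26.9 to 165.3 in F1 SAL. With its mean as a covariate, a setting chosen after seeing the data, the F1 PNO against F1 SAL differences were -1.65 for Avp, -1.96 for Oxt and -2.03 for Otp (limma adjusted p = 0.979, 0.979 and 0.974), and none passed. Between F1 IUO and F1 PNO, where 4 thalamus genes passed as lower, the covariate gave 3.24 for Avp, 4.49 for Oxt, 3.48 for Otp and 2.23 for Trh (limma adjusted p = 0.257, 0.234, 0.270 and 0.264), and all 4 passed. The list itself had r = -0.06 and rho = -0.07 with Avp over the 24 libraries (permutation p = 0.787 and 0.76, adjusted 0.990 and 0.939), with r of -0.51 within F1, 0.35 within F2 and -0.26 without the 2 farthest. Y-linked genes were lower in F1 IUO than in F1 SAL, 3 of 3 past the rule, and with their level as a covariate Avp differed there by 1.97 and Oxt by 1.84, and neither passed (limma adjusted p = 0.9997 for both). Genes of the suprachiasmatic nucleus, a further site of Avp neurons, did not pass the rule in any comparison, and their sum was 0.56 to 7.55 FPKM. Only 2 or 3 of these 4 genes were high enough to be tested in a comparison. No choroid plexus gene passed, and of the septum genes Zic4 did, as higher in F1 PNO against both F1 SAL (1.60) and F1 IUO. The 6 cortical excitatory genes had a median log2 difference of 1.24 between F1 IUO and F1 SAL and of 1.16 between F2 IUO and F2 SAL, beside 0.01 and -0.08 over all genes. They summed to 10.3 to 330.9 FPKM in F1 SAL, 198.6 to 232.0 in F1 IUO, 134.6 to 229.3 in F2 SAL and 183.1 to 361.3 in F2 IUO. Among them Fezf2 (1.66), Emx1 (0.99) and Neurod6 (1.33) passed between F2 IUO and F2 SAL, and Fezf2 between F2 IUO and F1 IUO (1.05), and no full count is given for this list. The part of cortical tissue in the differences of Avp and Oxt was not tested. No striatal projection neuron gene passed in any comparison. Hcrt (3.39) and Pmch (3.73) also passed as higher in F1 IUO against F1 PNO, where the 6 hypothalamus genes tested had a median of 0.42. Y-linked genes passed as higher in F2 IUO against F2 SAL (3 of 3) and F2 PNO (2 of 3), and as lower in F2 SAL against F1 SAL (3 of 3). Elsewhere, Pmch was higher in F2 PNO against F2 SAL (2.52) and F1 PNO (2.79), Agrp was higher in F2 IUO against F2 PNO (1.59), and Gbx2 was lower in F2 PNO against F1 PNO (-2.35).

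**Figure D4:**
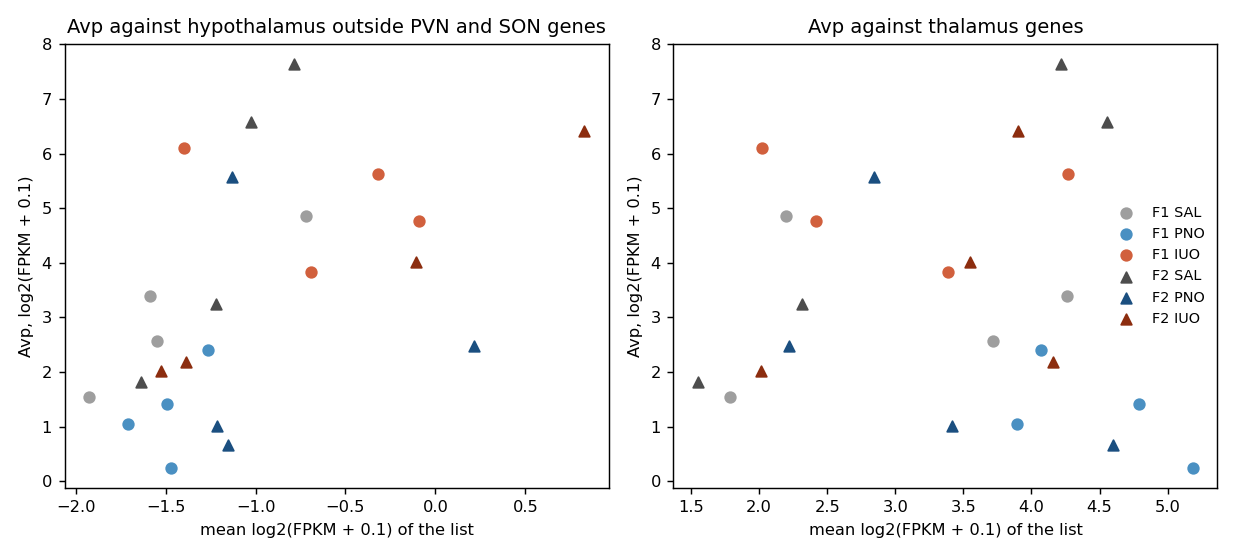
Each point is 1 of 24 libraries, with log2(FPKM + 0.1) of Avp on the vertical axes and the mean log2(FPKM + 0.1) of 10 hypothalamus genes (left) or 6 thalamus genes (right) on the horizontal axes, colored by group (circles F1, triangles F2). Avp rises with the hypothalamus genes (r = 0.524) but not with the thalamus genes (r = -0.06), and the F1 PNO libraries lie low in Avp and high in thalamus genes.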

How the data were processed

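RNA-Seq of P14 rat NAc was analysed for 24 pups, 4 in each of 6 groups taken from the sample labels. The authors isolated total RNA, merged the transcriptomes of all samples and deposited 1 FPKM value per gene and library, estimated with StringTie. HISAT2, SAMtools and edgeR are named in the submitters' processing notes. The genome build and tool versions are not given in the sources used here. The deposited FPKM values are rounded to 2 decimals, summed to 535866 to 766781 per library, and were not rescaled in the main fits. They are not counts, so the depth is unknown and the edgeR test of the methods could not be used.

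Each of 9 comparisons and 3 interactions used limma 3.58.1 in R 4.3.3 (lmFit, eBayes with a trend) on log2(FPKM + 0.1), for genes at 0.1 FPKM or more in 4 of 8 libraries (8 of 16 for interactions), with Benjamini-Hochberg adjustment over all genes tested. The rule used for calls is an unadjusted p under 0.05 with a 2-fold ratio of mean FPKM, stricter than the 1.5-fold that the methods of the study name. Exact permutation tests compared 4 against 4 libraries over 70 splits, and correlations used 100000 permutations. Tests were two-sided. The fits were tested on simulated data. P-values measure the spread between pups of separate litters. Alternatives were a pseudocount of 1, other filters, rescaling to TPM or the upper quartile, all 24 libraries in one fit, a replicate block, covariates of Y-linked, hypothalamus and (added after seeing the data) thalamus genes, a 1.5-fold rule, and leaving out each library.

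The 7 genes and all lists were chosen with earlier results of these data known. Named were the 7 genes, listed genes past the rule, and the 3 genes ranking most like each. The anterior pituitary list was added after values were seen. The listed genes Nms and Uty were not analysed here, and a listed marker gene is not reported here. Sequences came from RefSeq promoters of GRCr8, in which all 7 genes matched by symbol, and no other coordinates were used.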

Additional observations from a re-analysis of the deposited data

Results flagged for a closer look

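Of 42 combinations of gene and group, 7 had 1 library far from the other 3 by Dixon's test at the 95% level, and all were high libraries of F2. The test used FPKM values, which are skewed, and was not run on the log2 scale. Chance gives about 2.1 flags for independent, normally distributed values. The 7 flags came only from F2 PNO replicates 1 and 4 and F2 IUO replicate 3, in genes that vary together, so their number cannot be judged against 2.1. In brackets stands the distance to the next library divided by the distance from lowest to highest in that group.

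Avp in F2 PNO replicate 1 was at 47.6 FPKM, with the nearest library at 5.50 (0.913). Oxt in the same library was at 51.9 FPKM, with the nearest at 4.22 (0.938). Avp in F2 IUO replicate 3 was at 85.6 FPKM, with the nearest at 16.1 (0.851). Oxt in that library was at 135.0 FPKM, with the nearest at 21.5 (0.862). Otp there was at 9.97 FPKM, with the nearest at 1.60 (0.873). Sim1 there was at 0.20 FPKM, with the nearest at 0.03 (0.85). Otp in F2 PNO replicate 4 was at 1.33 FPKM, with the nearest at 0.40 (0.877).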

How the results depend on the processing

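Depth is unknown, so counting error could not be set beside any value, and the lowest values of Otp and Sim1 lie close to the step of 0.01 FPKM in which the values are given. The 4 genes that passed the rule between F1 IUO and F1 PNO did so in 18 of 18 alternatives for Avp and Oxt and, for Otp, in 8 of 8 that left out a library and 9 of 9 others, while Trh lost it with the hypothalamus covariate. Where a value changed below, the cause was not tested. With same-numbered libraries as a replicate block, the calls were kept in number (2, 3 and 4 in the F1 comparisons and 0 elsewhere) except that Otp passed between F2 PNO and F1 PNO (1.22), and no comparison had every pair of same-numbered libraries deviating together (r of -0.27 to 0.13, over 0.1 in 3 of 36 pairs), so the numbers were not taken as pairs.

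The number of the 7 genes past the rule between F1 IUO and F1 SAL fell to 0 with all 24 libraries in one fit, the Y-linked covariate and the hypothalamus covariate, and rose to 3 without F1 IUO replicate 1, where Trh passed (1.19). Between F1 PNO and F1 SAL it was 5 at 1.5-fold, 1 in one fit, 0 with the thalamus covariate and 1 to 3 on leaving out a library, with F1 PNO replicates 1 and 2 and F1 SAL replicate 3 giving 1. The hypothalamus covariate gave 1 for F2 IUO against SAL (Avp, -2.60), F2 IUO against PNO (Otp, 1.14) and F2 PNO against F1 PNO (Trh, 1.88), and one fit gave 1 for the last (Trh). Where F2 PNO entered, that covariate included Pomc, at 818.0 FPKM in F2 PNO replicate 4, the library with pituitary genes. The Y-linked covariate gave 2 for F2 SAL against F1 SAL, with Avp at 10.6 and Oxt at 11, values set by groups that did not overlap in that covariate. Leaving out a library gave 0 to 2 for F2 PNO against SAL, F2 IUO against PNO and F2 IUO against F1 IUO, and 0 to 1 for F2 SAL against F1 SAL and F2 PNO against F1 PNO. Interactions stayed at 0 of 6 throughout, exact tests at 3, and relations went from 7 to 6 with a pseudocount of 1.

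No direction changed among the calls past the rule. Directions of uncalled log2 differences changed as follows. With the thalamus covariate, Avp was -0.29 for F2 PNO against F1 PNO, Avpr1a -0.033 and Oxtr -0.034 for F1 IUO against PNO, Oxtr 0.19 for F1 PNO against SAL and Trh -0.037 for F2 IUO against PNO. With the hypothalamus covariate, Avpr1a was 0.26 for F1 IUO against SAL. It was 0.0030 for F2 PNO against SAL with the same covariate, which also gave Oxt -0.50, Trh -0.24 and Otp -0.38 for F2 IUO against SAL, Oxt -0.74 for F2 SAL against F1 SAL and Trh -0.0078 for F2 IUO against PNO. With the Y-linked covariate, Oxt was -2.29, Trh -0.47, Otp -0.99 and Avpr1a -0.032 for F2 IUO against SAL, and Otp 8.26 for F2 SAL against F1 SAL. With upper-quartile rescaling, Avpr1a was 0.026 for F2 PNO against SAL. With it, Trh was -0.0058 for F2 IUO against SAL and Trh was -0.16 for F2 IUO against PNO. Rescaling to TPM gave Trh -0.031 for F2 PNO against SAL. A pseudocount of 1 gave Otp 0.14 for F2 IUO against F1 IUO and Trh -0.013 for F2 IUO against PNO.

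Leaving out 1 library at a time gave ranges that cross 0. For Avpr1a they were -0.018 to 0.60 (F1 IUO against PNO) and -0.18 to 0.046 (F2 PNO against SAL). For Oxtr they were -0.024 to 0.33 (F1 IUO against PNO), -0.46 to 0.038 (F1 IUO against SAL) and -0.28 to 0.068 (F2 IUO against SAL). For Otp they were -0.89 to 0.57 (F2 IUO against F1 IUO), -0.24 to 1.66 (F2 IUO against SAL), -1.79 to 0.11 (F2 PNO against SAL) and -1.30 to 0.59 (F2 SAL against F1 SAL). For Oxt they were -1.40 to 0.36 (F2 IUO against F1 IUO), -0.35 to 1.80 (F2 IUO against SAL) and -0.45 to 1.71 (F2 SAL against F1 SAL). For Trh they were -0.59 to 0.14 (F2 IUO against F1 IUO), -0.45 to 0.49 (F2 IUO against PNO), -0.14 to 0.30 (F2 IUO against SAL) and -0.42 to 0.52 (F2 PNO against SAL).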

Other observations

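F2 PNO replicate 4 held hormone genes of the anterior pituitary, a gland that does not belong to the NAc, on a list chosen after these values were seen. Gh1 (growth hormone) was at 4682 FPKM there and at most 4.79 in the other 23 libraries. Cga (the shared glycoprotein hormone subunit) was at 633.3 FPKM against at most 0.41, Tshb at 386.6 against at most 1.4 and Prl (prolactin) at 150.4 against at most 0.61. Pou1f1, the transcription factor of these endocrine cells, was at 8.49 FPKM against at most 0.33. Pomc, a gene of both pituitary and hypothalamus, reached 818.0 FPKM in that library. Avp was at 5.50 FPKM and Oxt at 4.22 FPKM in it, neither high among the 24. Its Otp was the highest of its group. The library was left out as an alternative only.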
